A study of Hemigymnus melapterus and Thalassoma lunare and Coris batuensis with 46 samples.

Results

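The transcripts described here are those whose level stood out in 1 wrasse species, Hemigymnus melapterus, above 4 other wrasse species in a section of the forebrain. They were chosen from their measured levels. For each of 1936 transcripts with a total count of 100 or more, the mean CPM was taken per species. CPM is a transcript's count as a share of its library's total over the transcripts listed, put on a common scale. To each mean 10 was added, and the log2 values of the 5 species were sorted. A transcript was a member if the largest step between neighbours in that order was at least 1 on the log2 scale and left Hemigymnus melapterus alone on top. There were 48 members among the 26788 transcripts listed, which is 2.48% of the 1936. The same rule set 33 transcripts apart in Halichoeres melanurus (1.7%), 73 in Thalassoma lunare (3.77%), 43 in Coris batuensis (2.22%) and 76 in Labrichthys unilineatus (3.93%). Because the rule used these levels, every value that sets Hemigymnus melapterus against the other species is given as a description, without a test.

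All fish were captured females, each giving 1 library made by 3′ tag sequencing, in which reads come from the polyadenylated end of a transcript, so that counts follow transcript number and not length. The labels call Hemigymnus melapterus (10 fish), Halichoeres melanurus (9 fish) and Thalassoma lunare (10 fish) facultative cleaners, fishes that sometimes pick parasites off other fishes, and Coris batuensis (9 fish) and Labrichthys unilineatus (8 fish) non-cleaners. No treatment is labelled, and the time from capture to death was 6 to 28 minutes for all groups. The tissue was a slice of 300 µm. Such a slice mixes all cell types present, so fewer cells of a type and less RNA per cell cannot be told apart.

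The slice held the pallial areas Dl and Dm with parts of the septum and striatum. In teleost fishes Dl is regarded as a counterpart of the mammalian hippocampus, known for spatial and relational memory, and Dm as a counterpart of the basolateral amygdala, known for emotional and avoidance learning. Reads of all 5 species were counted on the same set of transcripts. A transcript whose sequence in 1 species lies closer to the counted sequence can then gain reads there, so a count reflects alignment as well as abundance, and the part of this in the levels below was not tested. The files give each transcript an ENSONIT identifier without a gene name, and no table of names was used here, so the members are described by level and pattern, no cell type markers could be checked, and only 4 identifiers are printed. The remaining members are called by their rank in mean level in Hemigymnus melapterus.

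The rule left out the libraries labelled Thalassoma lunare 4, Halichoeres melanurus 2 and Hemigymnus melapterus 4, and used the other 43. The values of these 3 went against their labels. The library labelled Halichoeres melanurus 2 had 3.77% of its counts on the 73 transcripts that set Thalassoma lunare apart and 0.226% on the 33 that set Halichoeres melanurus apart. The library labelled Thalassoma lunare 4 had 1.52% on the Halichoeres melanurus transcripts and 0.586% on those of Thalassoma lunare. In the libraries used, the Thalassoma lunare transcripts took 3.36% to 3.84% in Thalassoma lunare and the Halichoeres melanurus transcripts 1.23% to 1.97% in Halichoeres melanurus, so each of these libraries had the values of the other's species. The library labelled Hemigymnus melapterus 4 had 1.21% on the Thalassoma lunare transcripts, outside the range of every species. Total counts in the 9 Hemigymnus melapterus libraries used ran from 18301 to 38807, and in the 34 libraries of the other species from 14800 to 53987. A single count was worth 18.5 CPM in the deepest of the 43 and 67.6 CPM in the shallowest, so low values rest on few counts. In a second deposited count set on other sequences, the share of reads left unaligned was 51.4% ± 1.16 (SD, n = 9) in Hemigymnus melapterus, 58.8% ± 0.989 (SD, n = 8) in Halichoeres melanurus, 61.1% ± 1.39 (SD, n = 9) in Thalassoma lunare, 58.1% ± 0.594 (SD, n = 9) in Coris batuensis and 47.05% ± 1.21 (SD, n = 8) in Labrichthys unilineatus. This share therefore moved with species too. Its part in the levels of the members was not tested. That set held 370986 to 831709 reads, the unaligned included, in the 9 Hemigymnus melapterus libraries used. The counts behind CPM were 18301 to 38807 there, so CPM may rest on a small part of the reads.

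The 48 members ranked between 2 and 823 of the 1936 transcripts by mean level in Hemigymnus melapterus. Their mean in Hemigymnus melapterus ran from 157 to 12489 CPM with a median of 409 CPM. In the other species the median over the same 48 was 57.7 CPM in Halichoeres melanurus, 56.9 CPM in Thalassoma lunare, 50.6 CPM in Coris batuensis and 46.8 CPM in Labrichthys unilineatus. Over all 1936 transcripts the medians were 128 CPM in Hemigymnus melapterus and 125, 130.5, 132 and 129.8 CPM in the other 4 species in the same order. The median of the members was below that of all transcripts in each of the other species. Single members could differ, and that of rank 1 was above it in all of them. In Hemigymnus melapterus all 48 were above it, where 17 averaged 500 CPM or more and 13 were under 300 CPM. The rule favours both sides of this. It asks for a high level in Hemigymnus melapterus, and its minimum total count includes that species. Transcripts with few counts elsewhere can thus be members, and nothing is read from this comparison. The median log2 difference between Hemigymnus melapterus and the average of the other 4 species was 2.42 over the members and -0.02 over all 1936.

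The step in level that defined the members was usually modest. The ratio of the Hemigymnus melapterus mean to the mean of the next highest species ran from 2.10 to 25.5, with a median of 4.04. It was under 3 for 17 members, at least 5 for 19 and at least 10 for 7. On the log2 scale with 10 added, the step was at least 1.5 for 32 members, at least 2 for 21 and at least 3 for 7. Against single species the median ratio was 6.42 over Halichoeres melanurus, 5.83 over Thalassoma lunare, 6.19 over Coris batuensis and 7.28 over Labrichthys unilineatus. The ratio over Thalassoma lunare and that over Labrichthys unilineatus leave out 1 member each, with 0 counts in that species.

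**Figure D1:**
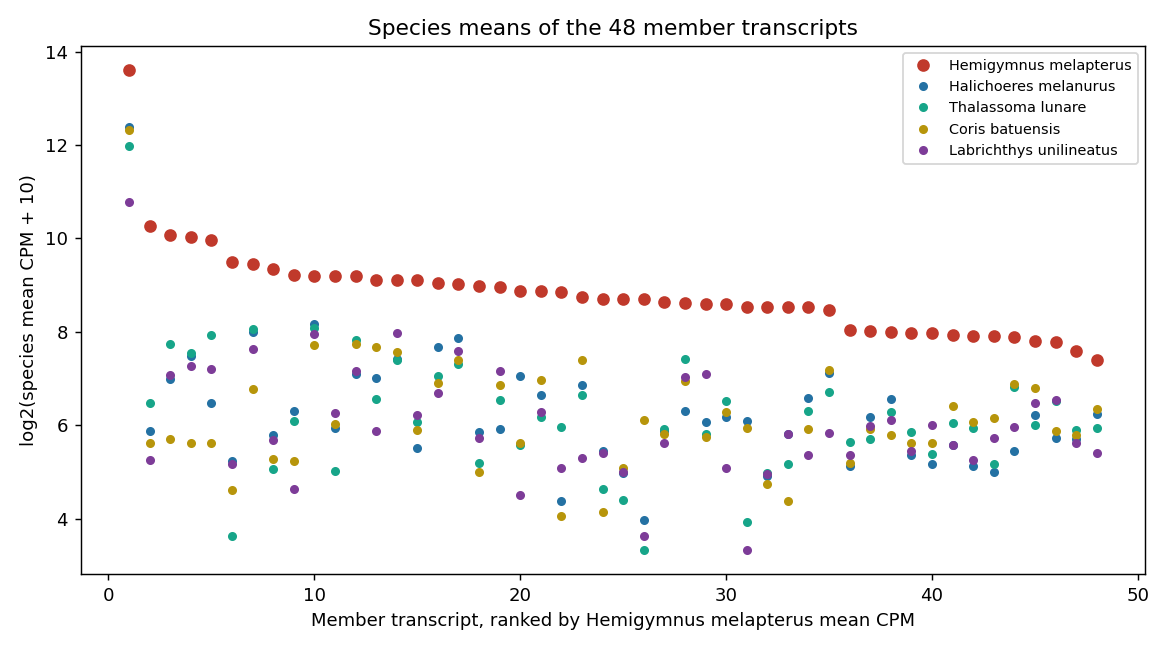
Each column is 1 of the 48 member transcripts, ranked by mean CPM in Hemigymnus melapterus, and the vertical axis is log2 of the species mean CPM plus 10, with 1 point per species. The large red points of Hemigymnus melapterus lie at least 1 unit above all others by the rule, the member of rank 1 lies far above the rest at 12489 CPM, and the order of the other 4 species changes from member to member.

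No single species came next after Hemigymnus melapterus. The next highest mean was in Halichoeres melanurus for 14 members, in Thalassoma lunare for 14, in Coris batuensis for 12 and in Labrichthys unilineatus for 8. The lowest mean was in the same species for 11, 10, 12 and 15 members. The 4 other species spread over a median of 1.15 log2 units among themselves, against 1.13 over all 1936 transcripts. The rule limits the steps among them, and members had fewer counts there (median 65, against 161 over all transcripts). The closeness of these values therefore does not show an equal spread. Most members were still detected outside Hemigymnus melapterus, with 25 to 44 of 48 found in each of the 34 other fish. At least 1 count in every fish was found for 42 of 48 in Hemigymnus melapterus (9 fish) and 12 in Halichoeres melanurus (8 fish). The same held for 24 in Thalassoma lunare (9 fish), 10 in Coris batuensis (9 fish) and 17 in Labrichthys unilineatus (8 fish). The 4 other species had the same order in the total counts of their shallowest library. These were 14800 in Coris batuensis, 17501 in Halichoeres melanurus, 26996 in Labrichthys unilineatus and 36350 in Thalassoma lunare. The share over all 1936 transcripts was not taken, so no species difference is read from these numbers. With so few counts per fish, an undetected transcript is not shown to be absent.

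The most abundant member was ENSONIT00000016607.1, which took 37.1% of all counts on the members in the 9 Hemigymnus melapterus fish. Its lowest, median and highest values were 10806, 12158 and 14801.5 CPM in Hemigymnus melapterus (9 fish). They were 3744, 5306 and 6483 CPM in Halichoeres melanurus (8 fish), 3227, 4001 and 4741 CPM in Thalassoma lunare (9 fish), 4500.2, 4829 and 6233 CPM in Coris batuensis (9 fish) and 1408, 1714 and 2365 CPM in Labrichthys unilineatus (8 fish). Every Hemigymnus melapterus fish lay above every fish of the other species, and every Labrichthys unilineatus fish lay below every fish of the other 4 species. The means were 12489 ± 1312 CPM (SD, n = 9) in Hemigymnus melapterus and 5379 ± 938 CPM (SD, n = 8) in Halichoeres melanurus, the next species, a ratio of 2.32.

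This transcript was abundant everywhere, ranking 2 of 1936 in Hemigymnus melapterus, 15 in Halichoeres melanurus, 22 in Thalassoma lunare, 15 in Coris batuensis and 61 in Labrichthys unilineatus. It was also a member by a narrow margin. The step below Hemigymnus melapterus was 1.21 log2 units, and the step that set Labrichthys unilineatus below the rest was 1.19. With any 1 of 7 libraries left out (Hemigymnus melapterus 1, Halichoeres melanurus 1 or 8, Thalassoma lunare 2 or 8, Labrichthys unilineatus 2 or 4) the second step became the larger, and the transcript was no longer a member. Among the 48 only 1 other member, of rank 23, had a margin under 0.1.

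The member with the largest step, 4.25 log2 units, was ENSONIT00000011125.1. Its lowest, median and highest values were 549, 710.3 and 861 CPM in Hemigymnus melapterus (9 fish). They were 0, 31.7 and 50.9 CPM in Halichoeres melanurus (8 fish), 0, 0 and 20.95 CPM in Thalassoma lunare (9 fish), 0, 0 and 37.3 CPM in Coris batuensis (9 fish) and 0, 28.3 and 37.0 CPM in Labrichthys unilineatus (8 fish). All Hemigymnus melapterus fish were far above all other fish. Behind these values stood 171 counts in Hemigymnus melapterus and 8, 1, 4 and 8 counts in the 4 other species, in 6, 1, 4 and 7 of their fish. Its mean was 710 ± 97.3 CPM (SD, n = 9) in Hemigymnus melapterus, 25.5 times the 27.8 ± 18.8 CPM (SD, n = 8) of Halichoeres melanurus. It was also one of the steadiest members among Hemigymnus melapterus fish, with a variance of the counts 0.379 times that expected from counting alone.

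**Figure D2:**
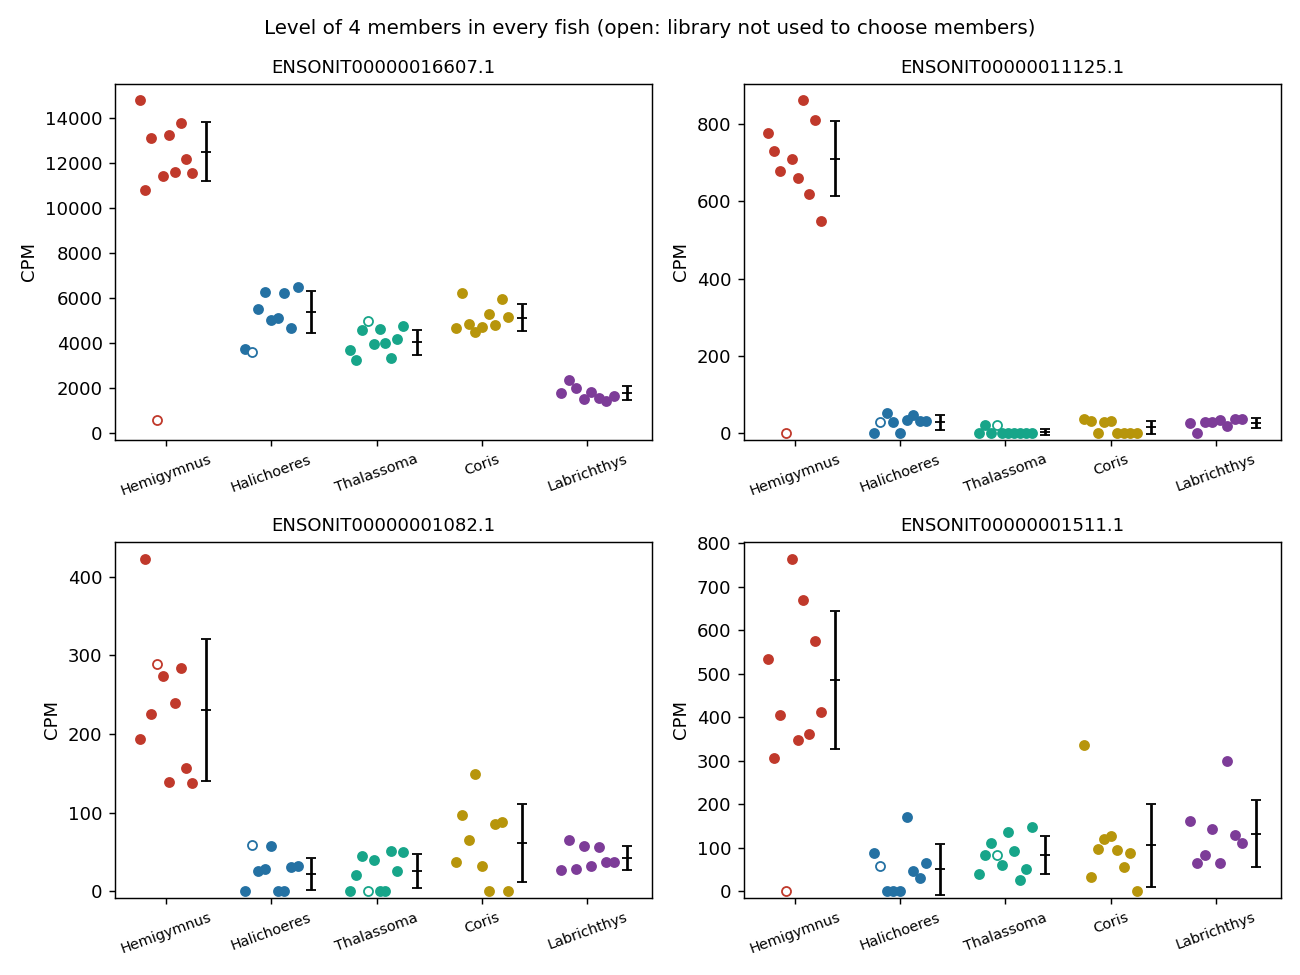
Each panel shows 1 member, with CPM on a linear vertical axis and 1 point per fish by species. Open points are the 3 libraries not used to choose the members, and black bars are the mean and SD of the others. In ENSONIT00000016607.1 and ENSONIT00000011125.1 all 9 filled Hemigymnus melapterus points lie above all others. The open point of the library labelled Hemigymnus melapterus 4 lies there at 577 and 0 CPM. In ENSONIT00000001082.1 and ENSONIT00000001511.1 the means of Coris batuensis and Labrichthys unilineatus lie above those of Halichoeres melanurus and Thalassoma lunare, with overlapping SD bars.

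In 22 of the 48 members all 9 Hemigymnus melapterus fish lay above all 34 fish of the other species. The same held for 1.14% of the 1936 transcripts, and these were the same 22, so no transcript outside the members separated in this way. With the libraries labelled Halichoeres melanurus 2 and Thalassoma lunare 4 counted too, 21 members remained separated. With the library labelled Hemigymnus melapterus 4 included as well, 4 did.

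The members of rank 3, 4 and 5 carried consecutive identifier numbers and had nearly the same level in Hemigymnus melapterus. Their means were 1070 ± 475, 1035 ± 413 and 997 ± 353 CPM (SD, n = 9), from 249, 247 and 239 counts. Summed, their lowest, median and highest values were 2290.4, 2706 and 6120 CPM in Hemigymnus melapterus (9 fish), 229, 315 and 583 CPM in Halichoeres melanurus (8 fish), 275, 645 and 1037 CPM in Thalassoma lunare (9 fish), 59.6, 118 and 190.3 CPM in Coris batuensis (9 fish) and 322, 399 and 519 CPM in Labrichthys unilineatus (8 fish). Hemigymnus melapterus was above the other 4 species in every fish, and every Coris batuensis fish was below every fish of the other 4 species. Fish 5 held the highest Hemigymnus melapterus value for all of them.

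The files do not say whether such neighbours in number are isoforms or copies of 1 gene, and reads that match several of them could be split by the counting, so their separate values are uncertain. A second run, the members of rank 30 and 34, had means of 378 ± 201 and 358 ± 139 CPM (SD, n = 9) in Hemigymnus melapterus. With each run counted once there were 45 members in place of 48. In all, 13 of 48 members (27.1%) had a neighbour in number among the 1936 transcripts, against 18.2% of all 1936.

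Members differed in how evenly Hemigymnus melapterus fish shared the high level. The index of dispersion, the variance of the counts over that expected from counting alone, had a median of 1.80 over the members and of 1.35 over the 864 transcripts with at least as many counts in Hemigymnus melapterus as the lowest member. It was above 2 for 20 of 48 members, where 27% of the 864 were. The rule used the mean of these same 9 fish, which a single high fish can raise. It can thus favour uneven transcripts, and nothing is read from this comparison. For 42 members the highest fish held at most 23.8% of the summed CPM of the 9 fish, where an even share is 11.1%. The highest fish was fish 5 or fish 7 for 10 members each, and each of the 9 fish was the highest for at least 2.

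In a few members 1 fish held much of the level. The member of rank 17 had 3331 CPM in fish 6, from 96 counts, which was 72.8% of the summed CPM of the 9 fish, and the next highest fish had 269 CPM. Without fish 6 its Hemigymnus melapterus mean was 156 CPM, below the 223 CPM of Halichoeres melanurus. The member of rank 35 reached 929 CPM in fish 5, against 446 CPM in the next fish, and without fish 5 its mean was 271 CPM, above the 136 CPM of the next species. Without their own highest fish 6 of the 48 members, including the member of rank 17, had a step of less than 1.

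The members of rank 9 and 22 shared a pattern among fish. The member of rank 9 had 1874 CPM in fish 6 and 1579 CPM in fish 7, and 0, 129 and 892 CPM as the lowest, median and highest of the other 7. The member of rank 22 had 1249 CPM in fish 6 and 1387 CPM in fish 7, and 0, 115 and 497 CPM as the lowest, median and highest of the other 7. Both were at 0 counts in fish 1. Their next highest species averaged 68.8 and 52.1 CPM. The highest fish of the other species had 126 CPM of the member of rank 9 and 111 CPM of that of rank 22, and 6 of the 9 Hemigymnus melapterus fish lay above it for each.

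**Figure D3:**
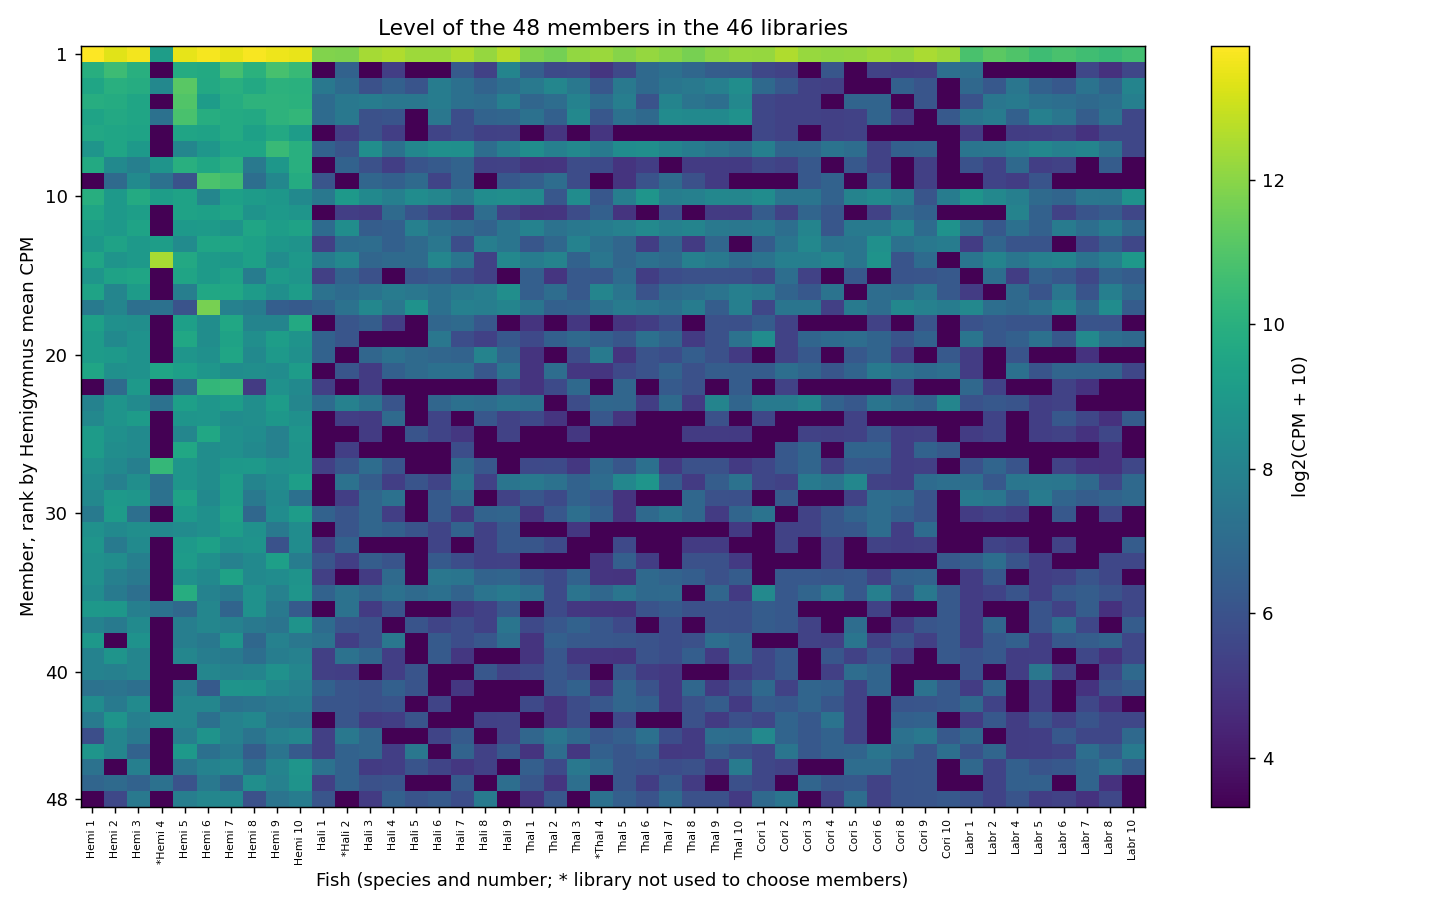
Rows are the 48 members by rank and columns the 46 fish by species, with colour giving log2 of CPM plus 10, and an asterisk marks the 3 libraries not used to choose the members. The block of lighter colour at the left is Hemigymnus melapterus, in which the column of the library labelled Hemigymnus melapterus 4 is dark for the 30 members with 0 counts there, and single bright cells mark the member of rank 17 in fish 6 and the member of rank 14 in the library labelled Hemigymnus melapterus 4.

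The share of each library's counts that fell on the members sums up the pattern per fish. It was 3.41% ± 0.311 (SD, n = 9) in Hemigymnus melapterus, with a lowest fish at 2.95% and a highest at 3.85%. It was 0.900% ± 0.141 (SD, n = 8) in Halichoeres melanurus, 0.778% ± 0.0856 (SD, n = 9) in Thalassoma lunare, 0.844% ± 0.0741 (SD, n = 9) in Coris batuensis and 0.499% ± 0.0332 (SD, n = 8) in Labrichthys unilineatus, with all 34 fish between 0.456% and 1.12%. Without ENSONIT00000016607.1 the share was 2.16% ± 0.325 in Hemigymnus melapterus (SD, n = 9), and the other 34 fish lay between 0.277% and 0.467%. Without it the other 4 species averaged between 0.322% in Labrichthys unilineatus, still the lowest, and 0.374% in Thalassoma lunare.

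A share that the choice of members did not use was had by choosing the members without a library and then measuring it there. It was 2.99% ± 0.528 (SD, n = 9) in Hemigymnus melapterus, with a lowest fish at 1.75%, and between 0.259% and 1.13% in the 34 other fish, so the ranges did not overlap. The lowest Hemigymnus melapterus fish was fish 1, whose omission removed ENSONIT00000016607.1 from the members. The omission of 6 of the 34 other fish removed it too, among them Halichoeres melanurus 1, at 0.259%. These ranges therefore mix lists with and without this transcript. The number of members ran from 39 to 49 over the 43 omissions.

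The 3 left-out libraries were also not used by the rule. The library labelled Halichoeres melanurus 2 had 0.809% of its counts on the members and that labelled Thalassoma lunare 4 had 0.823% (95% exact Clopper-Pearson intervals 0.717% to 0.910% and 0.745% to 0.908%, covering counting error only), within the range of the other species. The library labelled Hemigymnus melapterus 4 had 1.18% (0.941% to 1.47%), or 82 counts of 6936. It was below all 9 other Hemigymnus melapterus fish, whose mean share would give 236 counts at that depth, and just above the highest of the 34 fish of the other species, at 1.12%. The mean share of those 34 fish would give 52.6 counts.

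Within this library the members did not move together. It detected 18 of the 48, and 39 of its 82 counts fell on the member of rank 14, at 5623 CPM, where the 9 other Hemigymnus melapterus fish averaged 545 ± 151 CPM (SD, n = 9) and reached at most 820 CPM. Without that member its share was 0.620% (0.449% to 0.834%). This is inside the range of the other species over all 48 members, a range that includes ENSONIT00000016607.1. ENSONIT00000016607.1 had 4 counts in this library, where the mean level of the 9 other Hemigymnus melapterus fish would give 86.6. With only ENSONIT00000016607.1 left out, the share in this library was 1.12%, above the 0.277% to 0.467% of the 34 fish of the other species. That share still holds the 39 counts of the member of rank 14, and the share without both was not taken. In this library 11 members lay above the highest of the 34 fish of the other species, and 18 were at or above the lowest of the 9 Hemigymnus melapterus fish. The second count was 15 in the library labelled Halichoeres melanurus 2 and 10 in that labelled Thalassoma lunare 4. For 6 members the lowest of the 9 fish was at 0 counts, so any library meets the second count for them. The 18 that met it are therefore not the 18 detected. Of the 11, the members of rank 9, 36 and 47 each rested on 1 count in this library, at 144 CPM. The highest of the 34 fish had 126, 75.0 and 133 CPM of them. The members of rank 31 and 43 rested on 2 counts each. How many of all 1936 transcripts lay above those fish in this library was not counted, so nothing is read from the 11. The library labelled Hemigymnus melapterus 4 also detected the fewest transcripts, 1676, and 3 counts there are worth 433 CPM, so 0 counts there allow a level of up to that value.

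**Figure D4:**
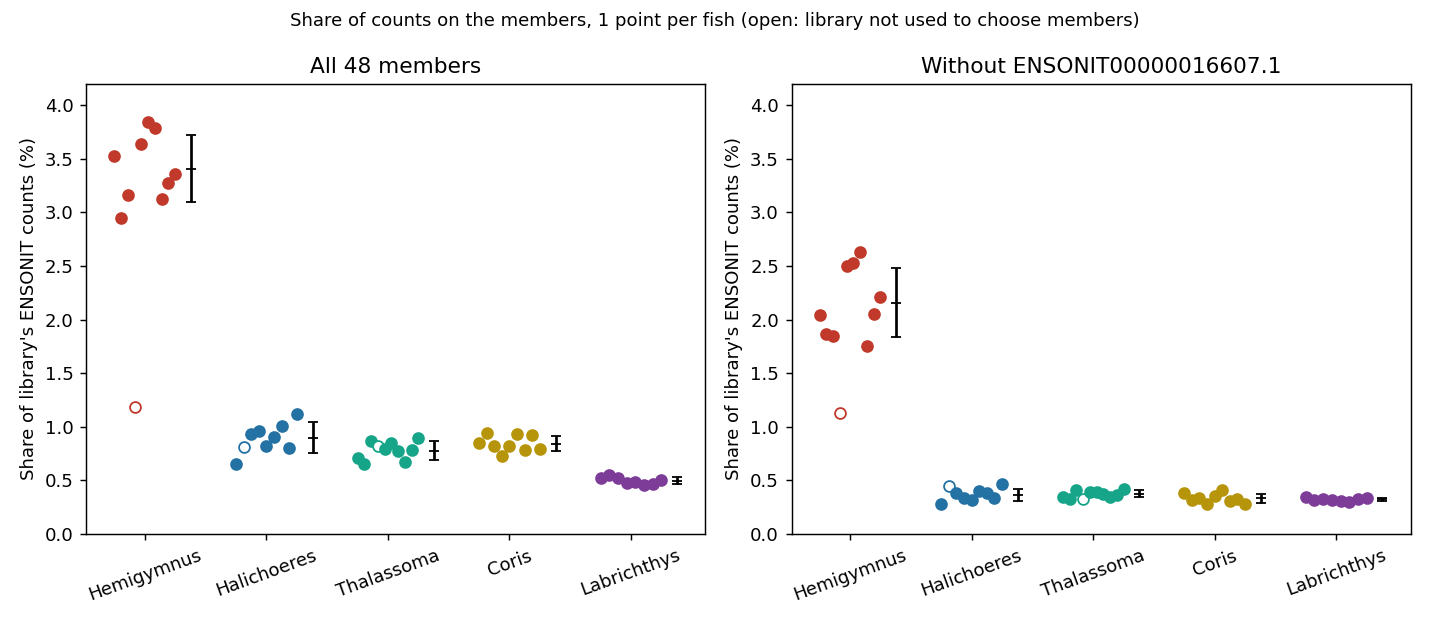
The vertical axis is the percentage of a library's counts that fell on the members, for all 48 at the left and without ENSONIT00000016607.1 at the right, with 1 point per fish by species. Filled points are the 43 libraries that chose the members, with black bars for their mean and SD, and open points the 3 that did not. The 9 filled Hemigymnus melapterus points lie from 2.95% to 3.85% at the left, above all points of the other species, and the open Hemigymnus melapterus point lies at 1.18%.

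The other 4 species were also compared among themselves. The rule limits these differences, since a transcript with a larger step among them is no member, and the minimum of 100 counts includes Hemigymnus melapterus, whose counts brought in members with few counts elsewhere. Shares of members called are therefore printed beside those of all transcripts, and nothing is read from their comparison. A quasi-likelihood F test (edgeR, adjusted over all 1936 transcripts) found a difference among Halichoeres melanurus, Thalassoma lunare, Coris batuensis and Labrichthys unilineatus for 17 of 48 members (35.4%), and for 62.9% of all transcripts. The members had a median of 65 counts in the 4 species together, where all transcripts had 161. Of the 17, the lowest of the 4 species was Coris batuensis for 6, Labrichthys unilineatus for 6, Halichoeres melanurus for 3 and Thalassoma lunare for 2. The members of rank 3, 4 and 5, with consecutive identifier numbers, were among the 6 of Coris batuensis. This split was not taken over all transcripts, so nothing is read from it.

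The study's labels set cleaners against non-cleaners, and the 4 other species hold 2 of each. The mean of Halichoeres melanurus and Thalassoma lunare was set against that of Coris batuensis and Labrichthys unilineatus. At an edgeR adjusted p below 0.05, 8 members were higher in the cleaners and 2 lower, and over all transcripts 17.3% were higher and 18.2% lower. The 10 are 20.8% of the members, and 35.5% of all transcripts passed in either direction. Of the 10, ENSONIT00000001082.1 and the members of rank 9 and 34 were not among the 17 called for any difference among the 4 species. The median log2 fold change was 0.18 over the members and -0.01 over all transcripts, with a median standard error of 0.38 for a member. Fish repeat the species and not the status, so these p-values describe the 4 species alone.

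ENSONIT00000016607.1 was the clearest of the 8. It averaged 5379 ± 938 CPM (SD, n = 8) in Halichoeres melanurus and 4035 ± 551 CPM (SD, n = 9) in Thalassoma lunare, against 5121 ± 597 CPM (SD, n = 9) in Coris batuensis and 1762 ± 307 CPM (SD, n = 8) in Labrichthys unilineatus. On the log2 scale the cleaners were higher by 0.64, with an SE of 0.085 and an adjusted p of 1.45e-09 by edgeR. Labrichthys unilineatus alone was below both cleaners, and the mean of Coris batuensis was above that of Thalassoma lunare. The members of rank 3, 4 and 5 were 3 of the 8, with log2 fold changes of 1.04, 1.15 and 0.90, and all were lowest in Coris batuensis. With the run counted once the 8 are 6.

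The 2 that were lower in the cleaners rested on few counts. ENSONIT00000001082.1 averaged 21.8 ± 20.5 CPM (SD, n = 8) in Halichoeres melanurus and 25.8 ± 21.8 CPM (SD, n = 9) in Thalassoma lunare, against 61.4 ± 49.0 CPM (SD, n = 9) in Coris batuensis and 42.6 ± 14.9 CPM (SD, n = 8) in Labrichthys unilineatus, from 5, 10, 18 and 13 counts. The difference was -1.13 on the log2 scale, with an SE of 0.41 and an adjusted p of 0.0254 by edgeR, and the fish of the groups overlapped. In Hemigymnus melapterus, also labelled a cleaner, it averaged 230 ± 90.6 CPM (SD, n = 9), above all of these means, as the rule requires.

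ENSONIT00000001511.1 averaged 50.2 ± 59.0 CPM (SD, n = 8) in Halichoeres melanurus and 83.5 ± 42.9 CPM (SD, n = 9) in Thalassoma lunare, against 106 ± 95.6 CPM (SD, n = 9) in Coris batuensis and 133 ± 76.4 CPM (SD, n = 8) in Labrichthys unilineatus, from 13, 32, 29 and 44 counts. The difference was -0.90 on the log2 scale, with an SE of 0.31 and an adjusted p of 0.0172 by edgeR, and here too the groups overlapped. It averaged 486 ± 158 CPM (SD, n = 9) in Hemigymnus melapterus. For both transcripts the cleaner species lay on opposite sides of the non-cleaners. The rule fixes this for any member lower in the other cleaners, since Hemigymnus melapterus is highest for every member. Neither call held when all transcripts with at least 1 count were tested (edgeR adjusted p = 0.155 for ENSONIT00000001082.1 and 0.107 for ENSONIT00000001511.1).

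**Figure D5:**
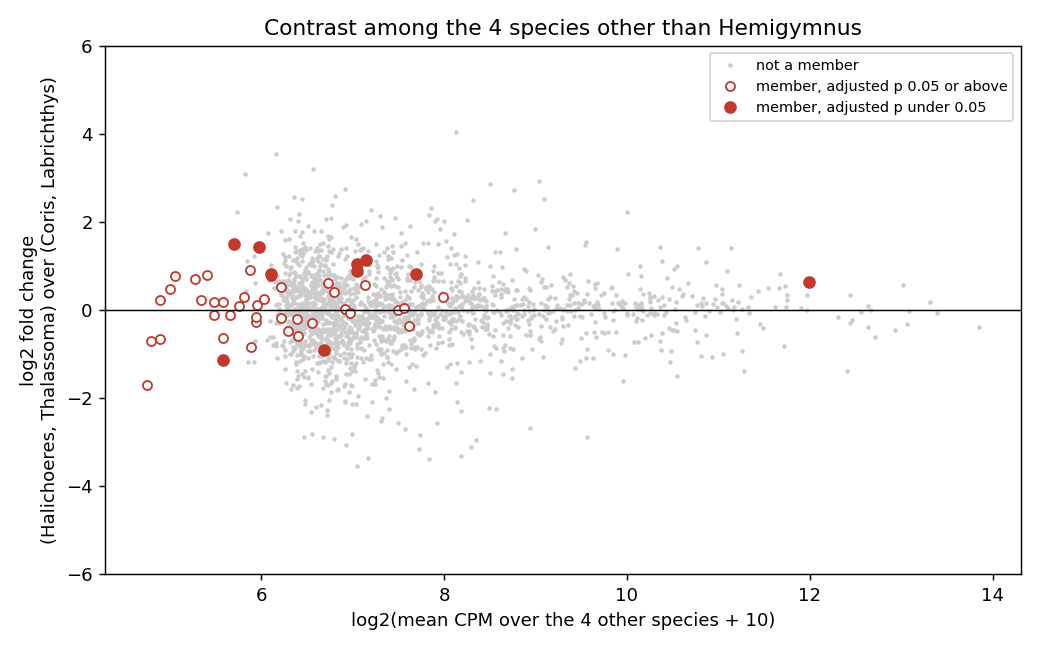
The horizontal axis is log2 of the mean CPM over the 4 species other than Hemigymnus melapterus plus 10, and the vertical axis the edgeR log2 fold change of Halichoeres melanurus and Thalassoma lunare over Coris batuensis and Labrichthys unilineatus, with 1 point for each of 1936 transcripts. The 48 members are red, filled for the 8 higher and 2 lower at an adjusted p below 0.05, and most lie at the low end of the horizontal axis, around 0 on the vertical axis.

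The second count set gave a similar number of features with this pattern. Applied to genes with Ldim_g identifiers, the rule set 43 of 1755 apart in Hemigymnus melapterus, or 2.45%, beside 48 of 1936 here. These genes took 3.26% ± 0.207 of the gene counts in Hemigymnus melapterus (SD, n = 9), and 0.798% ± 0.0922 in Halichoeres melanurus (SD, n = 8), 0.767% ± 0.0802 in Thalassoma lunare (SD, n = 9), 0.657% ± 0.0479 in Coris batuensis (SD, n = 9) and 0.694% ± 0.0806 in Labrichthys unilineatus (SD, n = 8). The rule chose them, so these shares are a description. The library labelled Hemigymnus melapterus 4, not used by the rule, had 0.678%, or 106 of 15625 gene counts. The lowest Hemigymnus melapterus fish used had 2.96%, and the fish of the other species had 0.569% to 0.914%. The libraries labelled Halichoeres melanurus 2 and Thalassoma lunare 4 had 0.913% and 0.837%. The files do not pair the identifiers of the sets, and whether any member has its counterpart among the 43 was not tested. The similar number did not hold in every species. The rule set apart 1.88% of the genes in Halichoeres melanurus, 2.39% in Thalassoma lunare, 0.969% in Coris batuensis and 3.82% in Labrichthys unilineatus. On the transcripts these were 1.7%, 3.77%, 2.22% and 3.93%. Both sets come from the same fish.

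Transcripts just inside and just outside the thresholds were much alike. The 3 members with the smallest steps had 1.00, 1.01 and 1.04 log2 units and Hemigymnus melapterus means of 213, 226 and 157 CPM. The 3 transcripts with Hemigymnus melapterus alone on top and the largest steps below the threshold had 0.99, 0.98 and 0.98 log2 units and means of 217, 133 and 268 CPM. The members with the lowest totals, 101 counts each, had steps of 1.75 and 2.40, and the pair with the highest totals under 100, at 97 and 96 counts, had steps of 2.22 and 2.83.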

How the data were processed

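For each fish the authors deposited 2 sets of raw counts, unnormalised going by their values: one on 26788 ENSONIT transcripts (plus 1 unnamed line with 0 counts) and one on 28134 Ldim_g genes. Cutadapt 2.8, BWA and SAMtools appear in the submitters' processing notes. Which tool counted reads, and on which reference, is not given in the sources used here. CPM was computed over the ENSONIT lines.

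The members and lists were chosen with earlier results of these data known. Members follow the rule stated in the report (total count 100, 10 CPM added, step of 1). The named transcripts were the member with the highest Hemigymnus melapterus level, the one with the largest step, and up to 2 with the largest fall in the cleaners among the other 4 species. Tests used R 4.3.3, edgeR 4.0.16 (TMM, quasi-likelihood, 1 coefficient per species, 43 libraries, Benjamini-Hochberg, threshold 0.05), on all transcripts with a total count of 100 or more so that every member was tested. The common biological coefficient of variation was 0.207. Each standard error is the absolute log2 fold change over the square root of F. The procedure was tested on simulated data. DESeq2 1.42.0 was an alternative. Molecular identifiers are not mentioned, so a molecule copied by PCR can count more than once, and intervals cover counting error only. No pair of libraries held identical values. Lists of cell type markers and pathways could not be used, since the identifiers are not paired with names here. The Ldim_g lines that name no gene held 95.2% of the reads there and were left out.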

Additional observations from a re-analysis of the deposited data

Results flagged for a closer look

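Single fish that lay far from the others of their labelled species were picked out by Dixon's test at the 95% level. It was applied to 31 groups of 8 to 10 libraries, with 8 flags, where chance gives about 1 in 20 groups. Among these groups were 6 members picked because 1 fish held a large part of their summed CPM. That rate does not hold for them. It also assumes normally distributed values, and several groups held only a few counts per fish. Flags that fall on the same library are not separate from each other.

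The library labelled Hemigymnus melapterus 4 was low in the share of counts on the members, at 1.18%. It was also low in ENSONIT00000016607.1, at 577 CPM, and in ENSONIT00000011125.1, at 0 CPM. This library was left out of the choice of members, so these values could not have shaped it.

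Hemigymnus melapterus 2 was high in ENSONIT00000001082.1, at 423 CPM. For ENSONIT00000001511.1, Coris batuensis 1 was high at 336 CPM and Labrichthys unilineatus 7 at 300.1 CPM, from 9 and 16 counts, and both are non-cleaners in the contrast that called this transcript lower in cleaners. In the member of rank 17, Hemigymnus melapterus 6 was high at 3331 CPM, and in the member of rank 35, Hemigymnus melapterus 5 was high at 929 CPM. Both members were picked for the large part held by a single fish, so their flags were favoured in advance. The causes were not tested.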

How the results depend on the processing

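The number of members, 48, depended most on the minimum total count: it was 130 with a minimum of 50 and 17 with a minimum of 200. It was between 32 and 56 under the other settings, and 39 to 49 with each of the 43 libraries left out in turn. Under some settings, which transcripts were members changed more than their number. Of the 48, 36 were kept when the median over fish replaced the mean, 42 with all 46 libraries and 41 with libraries thinned to 14800 counts. With DESeq2 size factors there were 42 members, all of them among the 48. The share of counts on the members in Hemigymnus melapterus, 3.41%, was 2.99% with members chosen without the library measured, 3.75% ± 3.06 (SD, n = 10) with members chosen on all 46 libraries, grouped as labelled although 3 of them go against their labels, 2.04% without the 2 most abundant members and, chosen after seeing the data, 2.16% without the most abundant. In the library labelled Hemigymnus melapterus 4 it was 0.620% without its most abundant member, also chosen after seeing the data. The 22 members with all Hemigymnus melapterus fish on top were 4 with all 46 libraries, likewise chosen afterwards, as was the count of 45 with runs of identifiers counted once.

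Among the other 4 species, 12 to 18 members differed under the alternatives, against 17, and 6 to 8 were higher in cleaners, against 8. The background moved too. With filterByExpr 12 of the 22 members tested differed and 6 were higher, beside 520 and 151 of 701 transcripts. With no filter on low counts these were 14 and 6 of 48 members, beside 4156 and 591 of 25207 transcripts. The other alternatives called 1155 to 1228 transcripts different, of 1936 or 2087 tested. Nothing is read from these comparisons. The members lower in cleaners, 2, were 3 by DESeq2, 1 with filterByExpr, which tested 22 of the 48 members, and 0 by edgeR with no filter on low counts (4 at an unadjusted p below 0.05), where 25207 transcripts were tested. Over all transcripts 354, 156 and 485 were lower in cleaners in these settings. With the sample number as a replicate block, 17 members differed, 7 were higher and 1 was lower. Over all 1936 transcripts 1182 differed, 318 were higher and 337 lower. The numbers do not pair the fish: over 42 same-numbered pairs of different species the mean correlation of deviations was -0.006, and 1 of 34 libraries correlated best with its own number. Depth limits the low values, since 1 count was worth 18.5 CPM or more.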
